A study of Mus musculus with 8 samples.

Results

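The genes described here encode the basement membrane, the interstitial and microfibrillar matrix, and the proteases and inhibitors that act on it. They were chosen by symbol from the authors' deposited table of genes that differed with diet in mouse liver macrophages. The rule took collagens (Col followed by a digit), laminin chains, Adam, Adamts and Timp genes, numbered matrix metalloproteinases (Mmp), and fibrillin, fibulin, emilin, multimerin, nidogen, lysyl oxidase, latent TGF-beta binding protein (Ltbp) and thrombospondin genes. Sparc, Sparcl1, Bgn, Dcn, Fn1 and Hspg2 were added by name. Of the 2386 genes in the table, 49 matched, and all 49 are annotated as protein-coding. The table lists only genes with a p-value below 0.05 and a log2 fold change beyond 1 in size, which is 2-fold. Every member therefore differed between the diets by the way it was chosen, and each count of members below is a description.

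The libraries were made from liver macrophages of mice of the common inbred strain C57BL/6, fed either a western diet (WD, 4 libraries) or a normal diet (ND, 4 libraries). The series design gives 4 mice per diet, and strain, tissue and cell type are the labels' own and shared by all 8 libraries. The composition and duration of the diets, the age of the mice and the way macrophages were isolated are not stated in the labels. The table writes the groups as WDV and NDV without explaining the V. They were taken to be WD and ND.

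Each gene in the authors' deposited table has a single set of values for the whole comparison: a mean normalized read count over the libraries, a log2 fold change of WD over ND, its standard error (SE) and an adjusted p-value. Neither the values nor the depths of single libraries were used here, so whether libraries of the diets overlap for any gene is unknown, and every ± below is the authors' SE. The p-values assume that the libraries are separate animals, for which the series design is the only source. Where a level per diet is given, it was computed from the mean count and the fold change with 4 libraries per diet, and is called the implied level. The label could not be checked against macrophage markers, because 18 of 20 such markers, among them Adgre1 and Csf1r, were outside the table and have no value here. Fewer cells of a type and less RNA per cell cannot be told apart in such bulk libraries.

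A basement membrane is a thin sheet of laminin and type IV collagen networks, tied together by nidogen and the heparan sulfate proteoglycan perlecan. In liver, hepatic sinusoids normally lack a continuous sheet of this kind, and stellate cells and sinusoidal endothelium are the main makers of matrix in the space beneath the endothelium. Matrix metalloproteinases and ADAMTS enzymes cut matrix proteins, and TIMP proteins inhibit them.

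Most of the listed matrix genes were lower under WD. Of the 49 members, 47 had a negative fold change and 2 a positive one, Col15a1 and Mmp25. At an adjusted p below 0.05, 42 fell and 2 rose, and 5 did not pass (Lamb1, Col14a1, Col24a1, Adamts5 and Adamtsl2). For comparison, 8.35% of the 17531 genes with an adjusted p, a number recovered from the p-values, were listed and called lower, and 11.4% were called in either direction. Among listed genes 70.4% had a negative and 29.6% a positive fold change, 61.4% were called lower, 22.0% higher and 83.4% either way. Under stricter rules the share of listed genes called was 70.4% at an adjusted p below 0.01, 49.7% with a Bonferroni limit and 44.6% with a 95% interval wholly beyond 2-fold. Because the rule drew on this same contrast, nothing is read from the members' share. The median log2 fold change of the 49 members was -2.01, with a range from -3.88 to 1.53, and that of all listed genes was -1.55. Among genes with negative fold changes alone, the median was -2.03 for the 47 members and -2.08 for all 1680 such listed genes. The 3 members closest to the 2-fold limit were Adamtsl5, Col5a1 and Col14a1, at -1.01, -1.02 and -1.04. Members just outside it are not in the table.

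**Figure D1:**
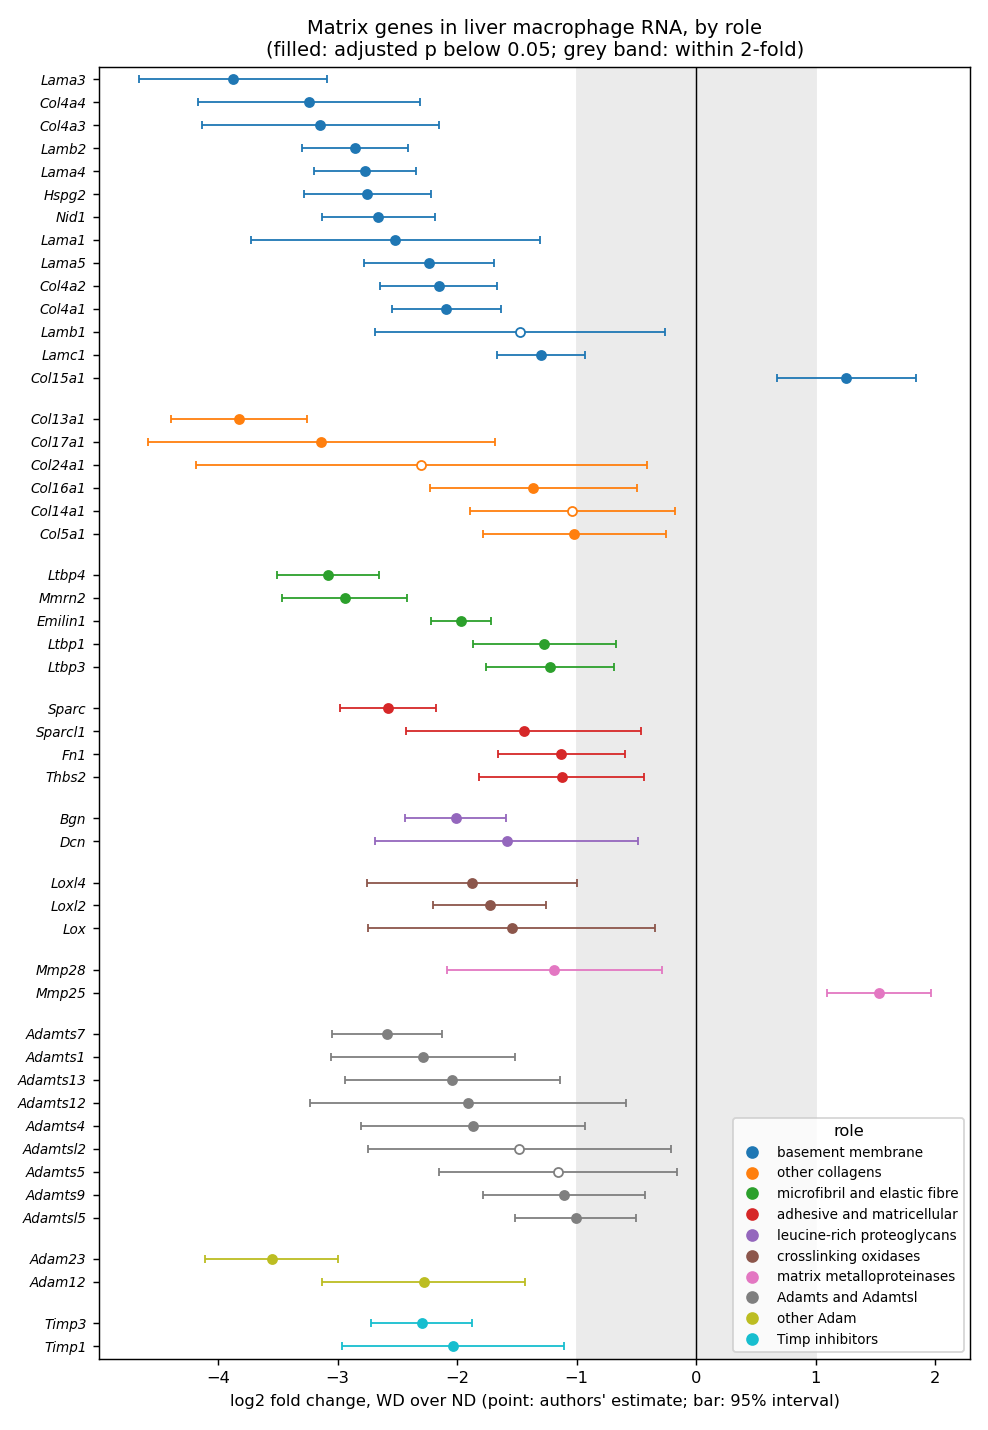
Log2 fold change (WD over ND) of each of the 49 matrix genes, grouped by role. Points are the authors' estimates and bars their 95% intervals (1.96 SE), and open points did not pass an adjusted p of 0.05. Points left of 0 are lower in WD, which holds for 47 genes, and the 2 on the right are Col15a1 and Mmp25.

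Type IV collagen chains, the network-forming collagens of basement membranes, fell in pairs. Col4a1 (ENSMUSG00000031502) and Col4a2 (ENSMUSG00000031503) encode the chains of the most widespread type IV collagen. They lie head to head on chromosome 8 (mm10), Col4a1 at 11198423 to 11312826 on the minus strand and Col4a2 at 11312805 to 11449287 on the plus strand. In the authors' deposited table Col4a1 stood at -2.09 ± 0.23 (adjusted p 1.22e-17) with a mean normalized count of 2011. Col4a2 stood at -2.16 ± 0.25 (adjusted p 2.31e-16) with a mean count of 1358. The implied levels of Col4a1 were 764 in WD and 3257 in ND, and those of Col4a2 were 498 in WD and 2219 in ND. The fold changes of the pair differed by 0.07, which is less than either SE.

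Col4a3 and Col4a4, the chains known from the kidney filter and mutated in Alport syndrome, form the same arrangement on chromosome 1, with 71 bases between their annotated starts. Their log2 fold changes in the authors' deposited table were -3.15 ± 0.51 (Col4a3) and -3.24 ± 0.47 (Col4a4), at mean counts of only 16.6 and 24.2. Their implied levels were 3.37 in WD and 29.8 in ND for Col4a3, and 4.64 in WD and 43.8 in ND for Col4a4. Their 95% intervals overlapped those of Col4a1. The difference itself was not tested, so whether the rarer pair fell further is not settled. Col4a5 and Col4a6 were not listed. The sequences where each pair starts are shown because the genes of each pair lie head to head. Whether these sequences bear on the fold changes was not tested. The bases shared by the annotated first exons of Col4a1 and Col4a2 are read on the Col4a2 strand, and those between Col4a4 and Col4a3 on the Col4a4 strand, both from RefSeq windows on GRCm38.p6. Capitals mark GGGCGG, the only match in either stretch to the letters searched on both strands: CCAAT (the CCAAT box), GGGCGG (the GC box), GGAAGT (as bound by many ETS factors) and TGACTCA (as bound by AP-1).
Col4a1 and Col4a2, chr8:11312805-11312826: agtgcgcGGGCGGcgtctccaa
Col4a4 and Col4a3, chr1:82586850-82586920: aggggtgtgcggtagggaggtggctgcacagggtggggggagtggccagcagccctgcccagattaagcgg

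Laminins, each a trimer of an alpha, a beta and a gamma chain, had 7 of their 11 annotated chain genes in the table, and 6 of the 7 fell. Lama4 (chromosome 10, 38965515 to 39110188), an alpha chain typical of vessel walls, had the smallest p of the basement membrane members, at -2.77 ± 0.22 (adjusted p 6.11e-35) in the authors' deposited table. Implied Lama4 levels were 118 in WD and 802 in ND. Lamb2 (chromosome 9, 108479736 to 108490530), a beta chain of mature vessels, followed at -2.85 ± 0.23 (adjusted p 4.62e-34), with implied levels of 71.8 in WD and 519 in ND. The deepest fall of all 49 members was that of Lama3, an alpha chain best known from epithelia, at -3.88 ± 0.40, but at a mean count of 35.9 in the authors' deposited table. Lama5, the broadly used alpha chain, stood at -2.23 ± 0.28 and Lama1, the embryonic one, at -2.52 ± 0.62 in that table.

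Lamc1, the gamma chain shared by most laminins, moved least among the called laminins, at -1.30 ± 0.19 (adjusted p 1.43e-10) in the authors' deposited table. Its 95% interval, -1.67 to -0.93, did not overlap those of Lamb2 (-3.30 to -2.41), Lama4 (-3.19 to -2.34) or Lama3 (-4.66 to -3.09). A test of these differences was not run, since the table does not give how the errors of different genes covary. Lamc1 was also the laminin gene with the highest mean count, 682. The other widespread beta chain, Lamb1, had -1.47 ± 0.62 and did not pass (adjusted p 0.0577 in the authors' deposited table).

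Linkers of the sheet fell as well. Hspg2, which encodes perlecan (chromosome 4, 137468769 to 137570630), stood at -2.75 ± 0.27 (adjusted p 2.57e-22) with a mean count of 2166 in the authors' deposited table, the highest among basement membrane members. Its implied levels were 560 in WD and 3772 in ND. Nid1, nidogen 1 (chromosome 13, 13437551 to 13512269), stood at -2.66 ± 0.24 (adjusted p 2.00e-26), with implied levels of 233 in WD and 1476 in ND. Hspg2, Nid1, Lama4 and Lamb2 thus lay close together, between -2.85 and -2.66 in the authors' deposited table. Nid2 and Col18a1 were not listed.

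Col15a1, a collagen of the basement membrane zone and the closest relative of Col18a1, was the only basement membrane member to rise. In the authors' deposited table it stood at 1.25 ± 0.30 (ENSMUSG00000028339, chromosome 4, 47208161 to 47313167; adjusted p 0.000198). Its implied levels were 84.7 in WD and 35.6 in ND, so it was a minor transcript in both diets. Its 95% interval, 0.67 to 1.83, reached below 2-fold. In the authors' own Gene Ontology analysis of genes with positive fold changes, Col15a1 was among 27 genes of the term cell adhesion (Benjamini p 1.17e-06 in the authors' deposited table).

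Of the other collagens only a few were listed, and the membrane-spanning ones had the most negative fold changes. Col13a1, a transmembrane collagen found at cell contacts (ENSMUSG00000058806, chromosome 10, 61838236 to 61979108), stood at -3.82 ± 0.29 (adjusted p 2.61e-37) in the authors' deposited table. Implied Col13a1 levels were 81.4 in WD and 1154 in ND, a 14.2-fold difference, and it had the highest mean count of this group, 618. Col17a1, the transmembrane collagen of hemidesmosomes, stood at -3.14 ± 0.74 at a mean count of 7.98 in that table. Col16a1, which associates with other fibrils, had -1.36 ± 0.44 (adjusted p 0.00974), and Col5a1, which sets fibril diameter, -1.02 ± 0.39 (adjusted p 0.0340) in the authors' deposited table. Col14a1, another fibril-associated collagen, and Col24a1, a minor fibrillar one, did not pass, at -1.04 ± 0.44 (adjusted p 0.0590) and -2.30 ± 0.96 (adjusted p 0.0565) in that table. The major fibril-forming genes Col1a1, Col1a2 and Col3a1 and all 6 Col6a genes were not listed. Absence from the table does not tell a gene that missed a limit from a gene that was not detected.

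The 250 bases before the RefSeq start are shown for Col13a1, the collagen with the largest fall among well-expressed members, and for Col15a1, the collagen that rose. Capitals mark GGAAGT or its reverse complement, the single match in each to the motifs named above, and neither stretch holds an annotated exon.
Col13a1, minus strand, chr10:61979109-61979358: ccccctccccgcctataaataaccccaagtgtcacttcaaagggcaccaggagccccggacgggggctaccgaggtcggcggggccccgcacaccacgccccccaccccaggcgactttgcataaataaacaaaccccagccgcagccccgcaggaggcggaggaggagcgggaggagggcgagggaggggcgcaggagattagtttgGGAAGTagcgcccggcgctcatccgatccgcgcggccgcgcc
Col15a1, plus strand, chr4:47207762-47208011: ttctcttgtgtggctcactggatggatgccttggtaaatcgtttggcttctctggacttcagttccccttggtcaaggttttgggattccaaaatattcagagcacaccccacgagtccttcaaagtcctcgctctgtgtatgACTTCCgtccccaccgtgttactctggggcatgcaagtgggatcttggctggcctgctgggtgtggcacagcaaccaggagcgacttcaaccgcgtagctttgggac

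All 5 listed genes of microfibrils and elastic fibres fell. Emilin1, a glycoprotein of elastic fibres and vessel walls (ENSMUSG00000029163, chromosome 5, 30913402 to 30921277), had the smallest p of all 49 members and ranked 27 among the 2386 listed genes. It stood at -1.97 ± 0.13 (adjusted p 4.99e-51) in the authors' deposited table, with implied levels of 442 in WD and 1733 in ND. Ltbp4 (chromosome 7, 27305136 to 27337692) stood at -3.08 ± 0.22 (adjusted p 3.00e-42), with implied levels of 536 in WD and 4538 in ND. Mmrn2, an endothelial matrix protein (chromosome 14, 34375465 to 34404287), stood at -2.94 ± 0.27 (adjusted p 2.16e-26 in the authors' deposited table), with implied levels of 248 in WD and 1901 in ND.

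The Ltbp genes, whose products hold latent TGF-beta in the matrix, did not fall to the same degree. Ltbp1 and Ltbp3 stood at -1.27 ± 0.31 and -1.22 ± 0.27 in the authors' deposited table (adjusted p 0.000271 and 6.61e-05). Their 95% intervals, -1.87 to -0.67 and -1.76 to -0.69, did not overlap that of Ltbp4, -3.51 to -2.65. The difference itself was not tested. Ltbp4 was the most abundant of the 3, with a mean count of 2537 against 606 for Ltbp3 and 199 for Ltbp1. Ltbp2, the fibrillins Fbn1 and Fbn2 and the 4 genes with an Fbln symbol were not listed. The fibulins Efemp1 and Efemp2, whose symbols fall outside the rule, were listed among the further matrix genes below, and both fell.

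All 4 listed adhesive and matricellular glycoproteins fell, Sparc and fibronectin by unequal amounts. Sparc, a collagen-binding glycoprotein (ENSMUSG00000018593, chromosome 11, 55394500 to 55423183), stood at -2.58 ± 0.20 (adjusted p 2.15e-34) in the authors' deposited table. Implied Sparc levels were 610 in WD and 3644 in ND, a 5.97-fold difference. Fn1, the fibronectin gene (ENSMUSG00000026193, chromosome 1, 71585520 to 71653200), had the highest mean count of all listed genes, 64680, and stood at -1.13 ± 0.27 (adjusted p 0.000249). Its implied levels were 40559 in WD and 88801 in ND. The 95% intervals of Sparc (-2.98 to -2.18) and Fn1 (-1.66 to -0.60) did not overlap, and their difference was not tested. Sparcl1, the Sparc relative also called hevin, and Thbs2, a thrombospondin that binds matrix proteases, stood at -1.44 ± 0.50 and -1.13 ± 0.35 in the authors' deposited table, at mean counts of 39.7 and 38.1. Thbs1, Thbs3 and Thbs4 were not listed.

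Both small leucine-rich proteoglycans of the rule, which bind collagen fibrils and TGF-beta, fell, with unequal precision. Bgn, biglycan (ENSMUSG00000031375, chromosome X, 73483602 to 73495933), stood at -2.01 ± 0.22 (adjusted p 4.57e-19) in the authors' deposited table. Implied Bgn levels were 524 in WD and 2117 in ND. Dcn, decorin (chromosome 10, 97479609 to 97518143), stood at -1.59 ± 0.56 (adjusted p 0.0196), with implied levels of 485 in WD and 1456 in ND. The 2 genes had mean counts of the same order, 1321 for Bgn and 970 for Dcn, but the SE in the authors' deposited table was 0.22 for Bgn and 0.56 for Dcn.

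The 250 bases before the RefSeq start of Bgn are shown because GGGCGG was the motif found in most of the members' windows. Capitals mark 3 matches in Bgn to CCGCCC, its reverse complement, of which 2 overlap.
Bgn, plus strand, chrX:73483351-73483600: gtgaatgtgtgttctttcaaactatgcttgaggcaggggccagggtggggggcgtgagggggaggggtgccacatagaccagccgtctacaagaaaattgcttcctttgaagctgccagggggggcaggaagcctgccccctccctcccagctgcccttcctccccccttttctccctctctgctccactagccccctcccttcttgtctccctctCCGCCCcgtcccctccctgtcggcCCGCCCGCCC

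Lysyl oxidases crosslink collagen and elastin, and the 3 listed ones fell. Loxl2 (chromosome 14, 69609068 to 69695834) stood at -1.73 ± 0.24 (adjusted p 1.94e-11) in the authors' deposited table, with implied levels of 45.0 in WD and 149 in ND. Loxl4 stood at -1.88 ± 0.45 (adjusted p 0.000219) and Lox at -1.55 ± 0.61 (adjusted p 0.0411) in the same table. The interval of Lox, -2.74 to -0.35, spanned that of Loxl2, -2.20 to -1.25.

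Matrix metalloproteinases were largely outside the table, and the 2 that were listed moved apart. Mmp25, a membrane-anchored metalloproteinase known from leukocytes (ENSMUSG00000023903, chromosome 17, 23628311 to 23645277), rose to a log2 fold change of 1.53 ± 0.22 (adjusted p 9.63e-11) in the authors' deposited table. Its implied levels were 270 in WD and 93.6 in ND, and its 95% interval, 1.10 to 1.96, lay wholly beyond 2-fold. The authors' Gene Ontology analysis placed Mmp25 among 19 genes of the term proteolysis (Benjamini p 0.00225 in the authors' deposited table). Mmp28, also called epilysin, stood at -1.19 ± 0.46 (adjusted p 0.0354) at a mean count of 16.3 in that table. The other 21 annotated Mmp genes, among them Mmp2, Mmp9, Mmp12, Mmp13 and Mmp14, were not listed.

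Of the secreted ADAMTS proteases 7 were listed, of which 6 fell and none rose, and of the related ADAMTS-like proteins, which lack protease activity, 2 were listed and 1 fell. Adamts7, which cuts cartilage oligomeric matrix protein (chromosome 9, 90163069 to 90208071), had the smallest p, at -2.58 ± 0.23 (adjusted p 2.82e-26) in the authors' deposited table, with implied levels of 33.2 in WD and 199 in ND. Adamts1, which cuts the proteoglycan versican (chromosome 16, 85793827 to 85803113), was the most abundant, with implied levels of 425 in WD and 2067 in ND and a log2 fold change of -2.28 ± 0.39 (adjusted p 9.70e-08). Adamts4, an aggrecan-cutting enzyme, stood at -1.87 ± 0.48 (adjusted p 0.000665) with implied levels of 240 in WD and 874 in ND. Adamts13, which trims von Willebrand factor and is made in liver by stellate cells, stood at -2.04 ± 0.46 (adjusted p 7.50e-05) at a mean count of 29.5 in the authors' deposited table.

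The remaining members of this group had smaller or less certain changes. Adamtsl5, an ADAMTS-like protein, stood at -1.01 ± 0.26 (adjusted p 0.000675) at a mean count of 187 in the authors' deposited table. Adamts9, which cuts versican, and Adamts12 stood at -1.11 ± 0.35 and -1.91 ± 0.67 in that table, Adamts12 at a mean count of 7.59. Adamts5, the aggrecan-cutting neighbour of Adamts1 53059 bases away on chromosome 16, had -1.16 ± 0.51 and did not pass (adjusted p 0.0702). Adamtsl2, which binds microfibrils and lies 69750 bases from Adamts13 on chromosome 2, had -1.48 ± 0.65 and did not pass either (adjusted p 0.0698 in the authors' deposited table).

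Only 2 of 34 other annotated Adam genes were listed, and both fell. Adam23, an adhesion protein of the family that lacks protease activity (ENSMUSG00000025964, chromosome 1, 63445891 to 63596276), stood at -3.55 ± 0.28 (adjusted p 1.14e-33) in the authors' deposited table. Implied Adam23 levels were 255 in WD and 2996 in ND, an 11.7-fold difference. Adam12, an active protease, stood at -2.28 ± 0.43 (adjusted p 1.72e-06) at a mean count of 20.9. The widely used sheddases Adam10 and Adam17 were not listed.

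The listed protease inhibitors fell alongside the ADAMTS genes. Timp3, the TIMP that stays bound to matrix and also inhibits ADAM and ADAMTS enzymes (ENSMUSG00000020044, chromosome 10, 86300372 to 86349506), stood at -2.30 ± 0.22 (adjusted p 9.23e-25) in the authors' deposited table. Implied Timp3 levels were 337 in WD and 1659 in ND. Timp1, a secreted inhibitor of most metalloproteinases (chromosome X, 20870166 to 20874735), stood at -2.03 ± 0.47 (adjusted p 0.000150), with implied levels of 99.9 in WD and 409 in ND. Timp2 and Timp4 were not listed. Annotated exons of Timp3 share 1733 bases, or 21.3% of its exonic length, with those of Syn3 on the opposite strand. Syn3 was itself listed at a mean count of 5.37, with a log2 fold change of -1.42 ± 0.71 that did not pass (adjusted p 0.123 in the authors' deposited table).

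Levels of different genes were compared per kilobase of annotated exon. Fn1 stood far above the rest, with an implied level per kilobase of 3471 in WD and 7600 in ND. Sparc came next at 161 in WD and 962 in ND, followed in ND by Ltbp4 (83.0 in WD, 702 in ND), Mmrn2 (62.3 in WD, 478 in ND), Timp1 (113 in WD, 461 in ND) and Col4a1 (102 in WD, 436 in ND). Fn1 made up 72.1% of the summed mean counts of the 49 members. The summed implied counts were 49236 in WD and 130242 in ND with Fn1, and 8677 in WD and 41441 in ND without it. At the low end, Lama3, Col4a3, Col4a4, Lama1, Adam12, Col17a1, Adamts5, Adamts12 and Col24a1 had implied levels per kilobase below 1 in WD. Mean counts of the members ran from 4.63 (Col24a1) to 64680 (Fn1). Of the 49 members, 28 had a mean count of at least 100 and 3 a mean count under 10.

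**Figure D2:**
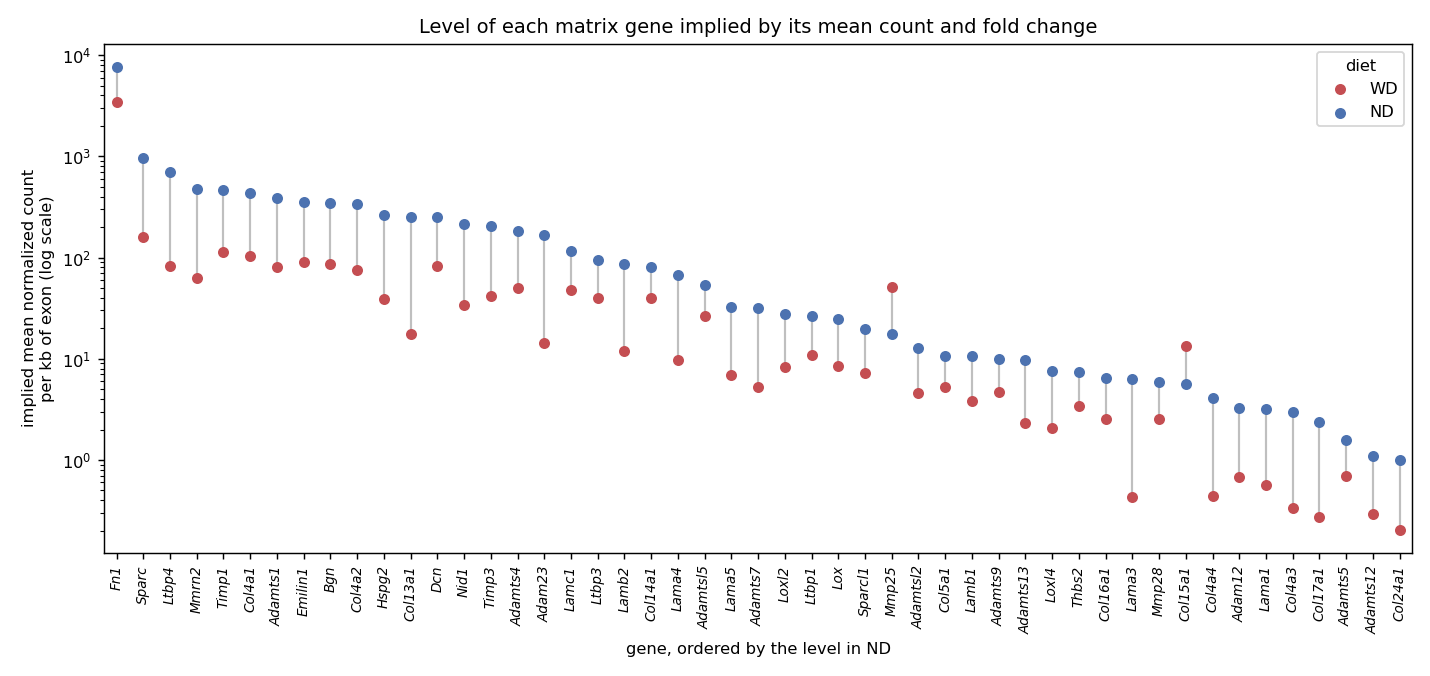
Implied mean normalized count per kilobase of exon (log axis) for each of the 49 genes in WD (red) and ND (blue), joined by a grey line and ordered by the ND level. No error is drawn, since these levels were computed from the authors' mean count and fold change. Fn1 lies highest, at 3471 in WD and 7600 in ND, and the red point lies above the blue one only for Mmp25 and Col15a1.

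Precision differed among members of like abundance. For each gene the SE was set beside the median SE of all listed genes whose mean count was within 2-fold of its own. This ratio was above 1.5 for 8 of the 49 members (16.3%) and for 117 of the 2386 listed genes (4.90%). These shares are not like for like. The median mean count was 187 for members and 37.5 for all listed genes. The table's p limit also bounds how large an SE can be beside its fold change, which leaves less room for high ratios where SEs are generally large, at low counts. The 8 members above 1.5 were Dcn, Adamts4, Adamtsl2, Lox, Timp1, Lamb1, Col14a1 and Adamts1. Their ratios lay above 2 and reached 2.77 (Dcn), and the next highest member was Sparcl1 at 1.47. Lamb1, Col14a1 and Adamtsl2 are 3 of the 5 members that did not pass. The median log2 fold change was -1.57 for the 8 and -2.12 for the 40 members with a lower ratio, which leaves out Fn1. Emilin1 had the lowest ratio, 0.63, and no ratio could be given for Fn1, which has no listed gene of like count. Whether 1 library gave rise to the larger errors could not be seen in values for the whole comparison.

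**Figure D3:**
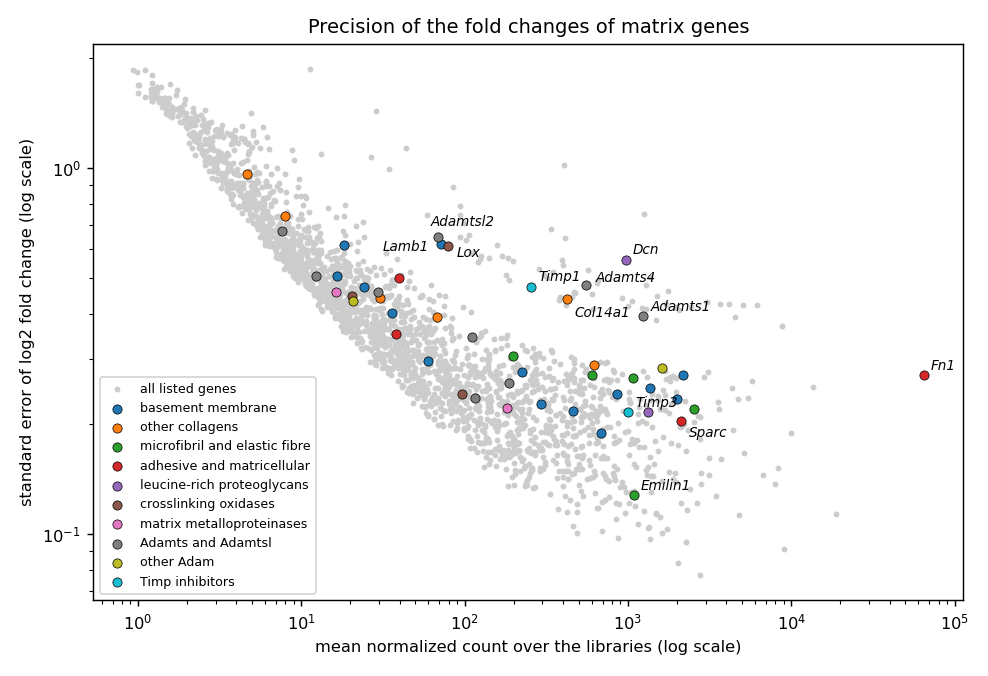
SE of the log2 fold change against mean normalized count (both on log axes) for all 2386 listed genes (grey) and the 49 matrix genes (coloured by role). Dcn, Adamts1, Adamts4, Col14a1, Timp1, Lamb1, Lox and Adamtsl2 lie above the main band, with SEs from 0.39 to 0.65, and Emilin1 lies low, at 0.13.

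The families differed in how many of their genes reached the table. The mouse annotation (GENCODE M21) holds 174 gene names that match the rule, of which 49 were listed and 125 were not. For basement membrane names 14 of 23 were listed. Among the other 9, Col4a3bp matches the rule only by its letters and encodes a ceramide carrier. Loxhd1, counted below among the 6 Lox names, likewise matches only by its letters and is not a lysyl oxidase. The numbers listed were 6 of 36 for other collagens, 5 of 15 for microfibril and elastic fibre genes, 4 of 7 for adhesive and matricellular genes, 3 of 6 for Lox names, 2 of 23 for Mmp genes, 9 of 24 for Adamts and Adamtsl genes, 2 of 34 for other Adam genes and 2 of 4 for Timp genes. Many of these genes are confined to other tissues, so these shares were not compared by a test. Genes that were not listed may have missed a limit or not been detected, so the shares do not measure a family's response to diet. Of the 17531 genes with an adjusted p, 11.4% were listed and called in either direction. That base leaves out genes without an adjusted p, unlike the annotated names.

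**Figure D4:**
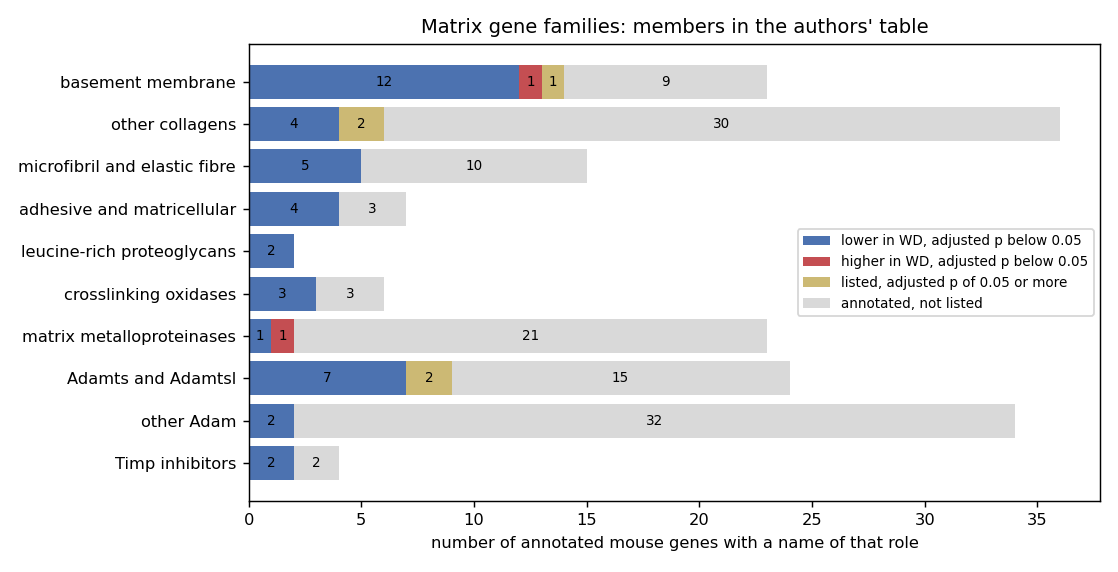
Number of annotated mouse genes per role: lower in WD (blue) or higher in WD (red) at an adjusted p below 0.05, listed without passing (yellow), and not listed (grey). Basement membrane names had 12 lower, 1 higher, 1 listed without passing and 9 not listed, and Mmp genes had 1 lower, 1 higher and 21 not listed.

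Other genes of the matrix pathways were taken from lists written with earlier results of these data known. For all counts from these lists, the comparison is the 17531 genes with an adjusted p. Of those, 8.35% were listed and called lower and 11.4% either way. Of 65 further matrix genes, 13 fell, 1 rose and 50 were not listed. The lowest p-values in the authors' deposited table belonged to Egfl7 (-3.50 ± 0.20), an endothelial matrix factor, Mfge8 (-1.68 ± 0.12), a bridging protein for dying cells, and Igfbp7 (-3.03 ± 0.22), a growth factor binding protein of vessel matrix. Spon1, a secreted adhesion protein, was the 1 that rose, with 2.23 ± 0.40 in the authors' deposited table. Of 26 collagen maturation genes, 7 fell and none rose. They were led in the authors' deposited table by Serpinh1 (-2.15 ± 0.16), the collagen chaperone HSP47, Pxdn (-2.98 ± 0.24), the peroxidase that crosslinks type IV collagen, and Fkbp14 (-2.60 ± 0.28), a collagen folding enzyme.

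Matrix receptors moved in both directions, with 7 of 35 lower, 3 higher and 25 not listed. In the authors' deposited table the collagen-binding integrin gene Itga1 stood at -2.33 ± 0.26, Itga8 at -1.99 ± 0.28 and the leukocyte integrin gene Itga4, whose ligands include fibronectin, at 1.28 ± 0.15. Sdc2, a heparan sulfate proteoglycan, and Itga2, another collagen receptor chain, stood at 1.14 ± 0.21 and 1.05 ± 0.32 in that table, and both rose. Of 27 TGF-beta pathway genes 6 fell and 1 rose. They were led by Lrrc32 (-1.55 ± 0.12), which displays latent TGF-beta on cells, and the co-receptor genes Eng (-2.88 ± 0.25) and Tgfbr3 (-2.75 ± 0.26), while the ligand gene Tgfb3 stood at 1.34 ± 0.24 in the authors' deposited table. Of 35 other matrix proteases and inhibitors 4 fell and none rose, near the 11.4% called either way among all tested genes. A further 4 were listed without passing. Among the latter, Hpse2 (-3.53) had no adjusted p, and Pcsk6 (2.02), Serpine2 (1.02) and A2m (2.72) had positive fold changes. Hyal2 (-3.12 ± 0.19), a hyaluronidase, Dpp4 (-2.29 ± 0.27), a dipeptidyl peptidase, and Ctsl (-1.31 ± 0.19), a lysosomal protease, had the lowest p-values in the authors' deposited table. The median log2 fold change of listed genes was -2.05 for further matrix genes, -2.08 for collagen maturation, -1.25 for receptors, -1.68 for the TGF-beta pathway and -1.33 for other proteases, against -1.55 for all listed genes.

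Cell type markers were taken from lists that were also written with earlier results of these data known. Every listed endothelial and stellate cell or fibroblast marker had a negative fold change, as did 70.4% of all listed genes. Of the 17531 genes with an adjusted p, 8.35% were listed and called lower and 11.4% either way. Of 20 endothelial markers, chosen for sinusoidal cells but not all confined to them, 19 fell and 1 was not listed. The 19 ranged from -4.12 (Cldn5) to -1.49 (Lyve1), with a median of -3.10 in the authors' deposited table. Summed over the listed markers, the implied level was 12392 in WD and 92155 in ND. Of 20 stellate cell and fibroblast markers, 4 of which match the rule, 11 fell, 1 was listed without passing and 8 were not listed. Those not listed were Ngfr, Acta2, Tagln, Col1a1, Col1a2, Col3a1, Lum and Gsn. The median of the 12 listed was -1.69 in that table, and Lrat, which stores retinol in stellate cells, led with -2.19 ± 0.42. The summed implied level of the listed stellate and fibroblast markers was 1078 in WD and 3284 in ND. Dcn, itself a member, gave 485 of that sum in WD and 1456 in ND, so the sum is not separate from the members. Egfl7, Lyve1 and Reln stand in both a marker list and a matrix or receptor list, and Dcn is a member as well as a fibroblast marker. Among the listed markers, 8 of 19 endothelial and 5 of 12 stellate or fibroblast genes had an SE more than 1.5 times that of genes of like count. Smooth muscle markers had 2 of 8 lower, and mesothelial markers had none of 7 listed. Of 20 Kupffer cell and macrophage markers, Ccr2 (1.44 ± 0.20) and Ly6c2 (2.55 ± 0.50), both of recruited monocytes, rose in the authors' deposited table. Of 9 mast cell markers, 6 rose and 1, Kit, fell. Hepatocyte markers had 3 of 12 higher and 1 listed without passing, and the cholangiocyte (9 genes) and platelet (8 genes) lists had 1 each listed without passing. The part of these markers' cells in the matrix result was not tested.

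**Figure D5:**
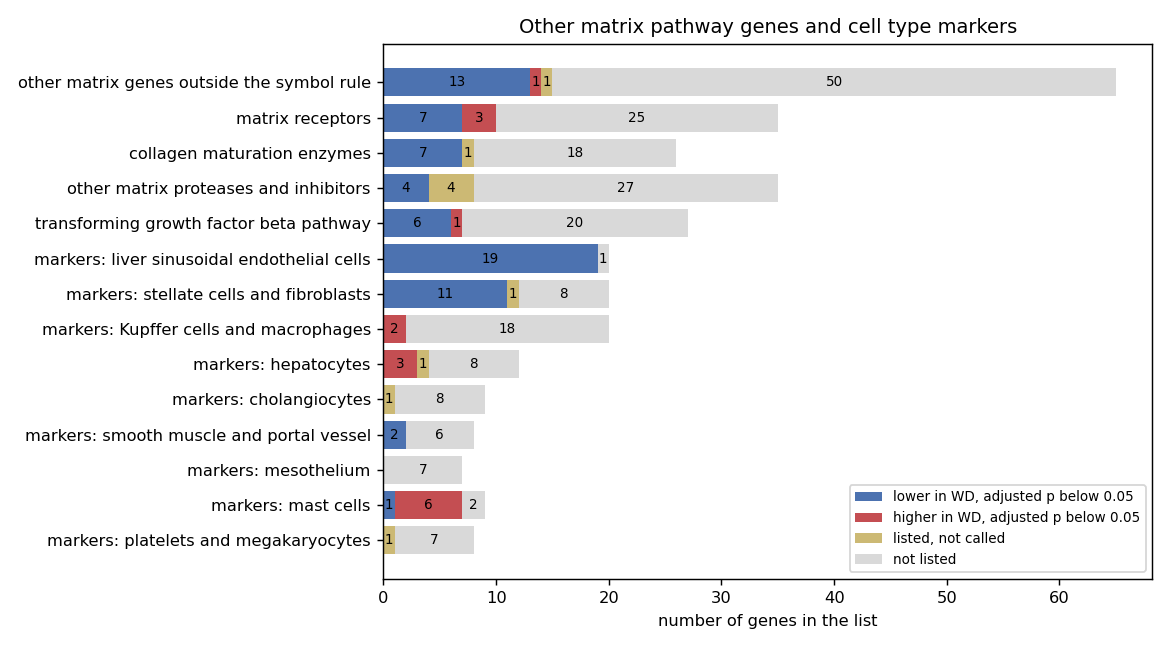
Number of genes per list that were lower in WD (blue) or higher in WD (red) at an adjusted p below 0.05, listed without passing (yellow) or not listed (grey). The endothelial list is lower for 19 of 20 genes, and the macrophage list has 2 genes higher and 18 not listed.

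Whether the libraries kept strand information is not given, so reads from overlapping genes on opposite strands may not have been told apart. Annotated exons of 16 members share bases with another gene, and for 5 of them (Timp3, Mmp28, Adamts9, Col4a3 and Loxl2) the share with a single gene was above 5% of the exonic length. Of these partners, Syn3 and A730049H05Rik, which shares 9.18% of Adamts9, were listed, the second at a mean count of 2.18 in the authors' deposited table. Col4a1 and Col4a2 share only the 22 bases printed above.

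RefSeq start windows were found for 33 of the 49 members, 36 windows in all. In the 250 bases before the start, on either strand, CCAAT was present in 27.8% of the members' windows and in 33.8% of all 32851 windows in the reference. The corresponding shares were 55.6% and 32.7% for GGGCGG, 30.6% and 19.7% for GGAAGT, and 0 of 36 windows and 4.46% for TGACTCA. These are matches of letters and carry no test. Both Col4a1 and Col4a2 windows held CCAAT, and windows of the members that rose held GGGCGG (Mmp25) or GGAAGT (Col15a1). Whether windows of genes that start head to head share bases was not checked, so such matches may not be separate.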

How the data were processed

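RNA sequencing compared liver macrophages of WD mice with those of ND mice (4 libraries each). Per the labels' protocols, oligo(dT) beads captured polyadenylated RNA, and random hexamers primed the cDNA. The submitters' processing notes list mm10 as the build and, with no role or version, DESeq, edgeR, featureCounts, StringTie, STAR, STAR-Fusion and HISAT2. The deposited table holds, per the file headers, a mean normalized count signal, the log2 fold change and its standard error, a test score and the p-value and adjusted p-value, under column names that DESeq2 gives. The deposited score equals fold change over standard error (largest departure 7.1e-08). Fold changes were taken as not shrunken, which this equality alone does not settle.

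Genes were called at the authors' adjusted p below 0.05, which rests on their fit to all genes and is missing for 77 listed genes, none of them a member, and no test was run here. The 95% intervals are 1.96 standard errors. The number of tested genes, 17531, is the whole number that makes most ranks (p times number, divided by adjusted p) whole within 0.02 (91.0% of them). The step was tested on simulated data. Implied levels split the mean count by the fold change over 4 and 4 libraries, an approximation. Coordinates and exonic lengths are from GENCODE M21 (GRCm38, which is mm10), where all 2386 gene IDs matched. Promoter windows are from RefSeq on GRCm38.p6. Python 3.11.15 and pandas 2.3.3 were used. The members and lists were chosen with earlier results of these data known. Named in full were Sparc, Bgn, Fn1, Timp3 and Col4a1, the 3 members per role with the smallest p and the 3 with the highest mean count, every member that rose, and the 3 listed genes per pathway list with the smallest p. Other names were added after their values were seen. The largest listed p was 0.0500 and the smallest fold change size 1.00 (log2), by which the table's limits were checked. Alternatives changed the p limit, the fold limit, the count minimum and the choice of members.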

Additional observations from a re-analysis of the deposited data

How the results depend on the processing

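All alternatives below keep the sign of every member, because they select among the authors' values and refit nothing. Against 44 members called at an adjusted p below 0.05, the count was 49 at the authors' unadjusted p, 38 at an adjusted p below 0.01, 42 with a mean count of at least 10, 44 with protein-coding members only and 35 without the Adam, Adamts and Adamtsl genes. The count moved by more than 1.5 times under 3 settings: 24 members with a Bonferroni limit over 17531 genes, 27 with a 95% interval wholly beyond 2-fold and 27 with a mean count of at least 100. By construction these ask for a smaller p, a larger change or more counts. Col15a1 passed none of the 3, and Mmp25 passed all. The median log2 fold change of -2.01 stayed within 1 median SE under every alternative for it. The p-values rest on 4 libraries per diet, whose separate values were not used here, so leaving out each replicate was not run. No paired analysis was possible because the library labels share no replicate number between the diets.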
